A study of Mus musculus with 2 samples.

Results

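Of 1483 ISL1 binding peaks in mouse sinoatrial node cells, 4 were listed under 8 genes grouped here as pacemaker identity genes. The genes were the transcription factor genes Isl1, Shox2, Tbx2, Tbx3, Tbx5, Tbx18 and Tbx20 and the channel gene Hcn4. A peak counted for a gene when that gene had the nearest transcription start site (TSS) in the authors' annotation, at any distance. Isl1 had 2 peaks, Tbx5 had 1 and Tbx18 had 1. No peak was listed under Shox2, Hcn4, Tbx2, Tbx3 or Tbx20.

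The series held 2 libraries, an ISL1 immunoprecipitate and its input DNA, and only the peak list of the former was analysed. The cells came from ICR mice at postnatal days 1 to 3 that carried Hcn4-H2BGFP, a green fluorescent histone reporter, and were sorted for its signal. No mutant, treatment or second ISL1 library was among the samples, so no value here has a replicate and no difference between conditions was tested. A peak list holds no transcript levels, and the identity of the sorted cells was therefore not checked against marker expression. Levels of these genes in Isl1-deficient node cells were not analysed here, and no peak below is paired with a change after loss of Isl1.

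The sinoatrial node starts each heartbeat. Its cells keep apart from the surrounding atrial muscle through a small set of transcription factors, and they depolarise by themselves partly through HCN4, the main channel of the pacemaker current. ISL1, a LIM-homeodomain factor, and SHOX2, a paired-type homeodomain factor, promote the pacemaker programme, and Isl1 lies downstream of Shox2 in the node. T-box factors act around them: TBX3 and TBX2 repress genes of working muscle, TBX5 activates cardiac genes, TBX18 is needed for the head of the node, and TBX20 acts in heart chamber development. Such developmental genes are often controlled from enhancers far outside the gene.

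All 4 peaks lay between genes and far from the start site they were assigned to. The shortest distance was 81.9 kb and the longest 199.5 kb, with a median of 156.6 kb, against a median of 83.4 kb over the 1483 peaks. The annotation was intergenic for 4 of 4 peaks and for 53.8% of all peaks. None of the 8 genes held a peak within its own transcribed body. Peaks lay upstream of the start site in 2 cases, both at Isl1, and downstream in the other two. Because a wide space around a gene leaves room for distant peaks, and gene spacing was not corrected for, the long distances describe these loci and are not compared by a test.

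**Figure D1:**
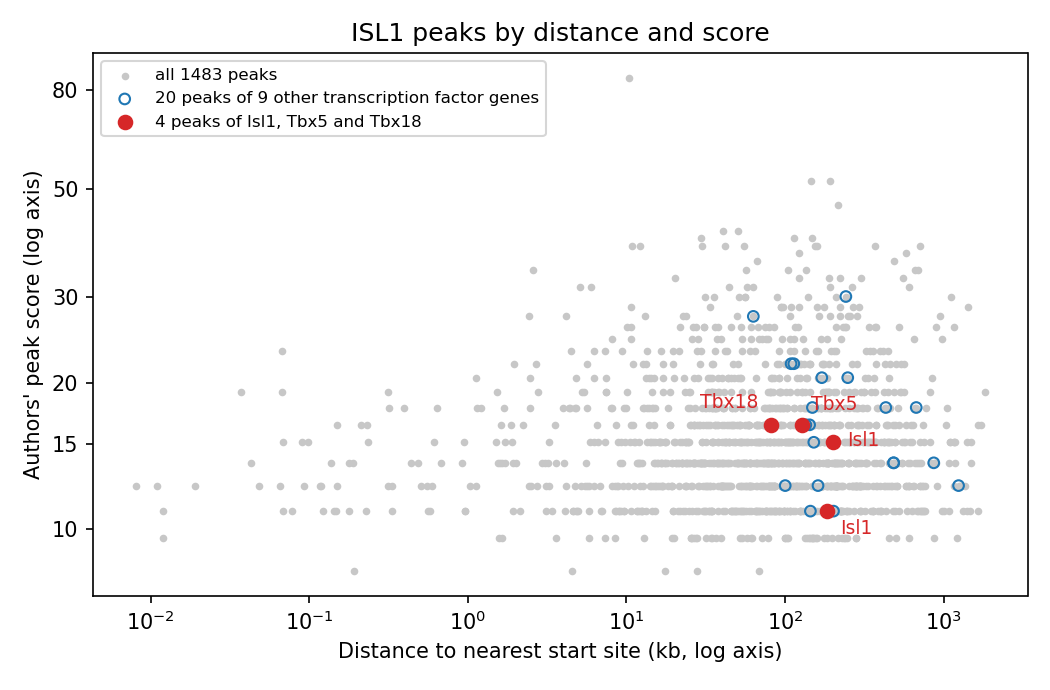
Each point is 1 peak, with its distance to the nearest start site in kb on the horizontal log axis and the authors' score on the vertical log axis. The 4 red peaks of Isl1, Tbx5 and Tbx18 lie between 81.9 and 199.5 kb at scores of 10.9 to 16.4, within the grey cloud of all 1483 peaks, and the blue rings are the 20 peaks of 9 other transcription factor genes.

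The 4 peaks had a median score of 15.8, against 15.1 over all peaks. The lowest, 10.9 at Isl1, was below the lower quartile of 12.3. The score is a value per peak made by the authors, and every score was a whole multiple of a step of 1.37. If a step stands for 1 sequenced tag, an exact Poisson 95% interval follows, which covers counting error only. The 4 scores ran from 10.9 to 16.4, while the whole list had quartiles of 12.3 and 17.8 and a highest score of 84.8. No peak of the 8 genes reached the upper quartile. Over the list 436 of 1483 peaks did, and 4 peaks are too few to read this as a difference. The focus ratio, a fraction that the peak caller gives for each peak, was 0.643 to 0.733 in the 4 peaks, all below the median of 0.739 over the list.

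Isl1, the gene of the precipitated factor itself, was the member with 2 peaks. The nearer lay at chromosome 13, 117284406 to 117284550 (mm9), 184.6 kb upstream of the start site. Its score was 10.9, or 8 steps (interval 3.45 to 15.8 steps), and 1227 of the 1483 peaks scored higher. The farther lay at 117299338 to 117299482, 199.5 kb upstream, with a score of 15.1, or 11 steps (5.49 to 19.7), and 567 peaks scored higher. The intervals overlap over most of their length, so the 2 peaks cannot be ranked against each other.

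The Isl1 peaks formed a pair 14.9 kb apart, whereas the median gap from a peak to its nearest neighbour was 197.0 kb over the list, with quartiles of 37.7 and 700.3 kb. Both distances place the Isl1 start site at the same base, chromosome 13 117099896, on the minus strand. Within 1 Mb of it there was 1 further peak, listed under Parp8, an ADP-ribosyltransferase family gene. That peak (chromosome 13, 117609491 to 117609635, score 12.3) lay 509.7 kb upstream of Isl1 and 204.8 kb downstream of the Parp8 start site. All 3 peaks within 1 Mb of Isl1 were thus upstream of it and intergenic, and no peak lay on its downstream side over that span.

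**Figure D2:**
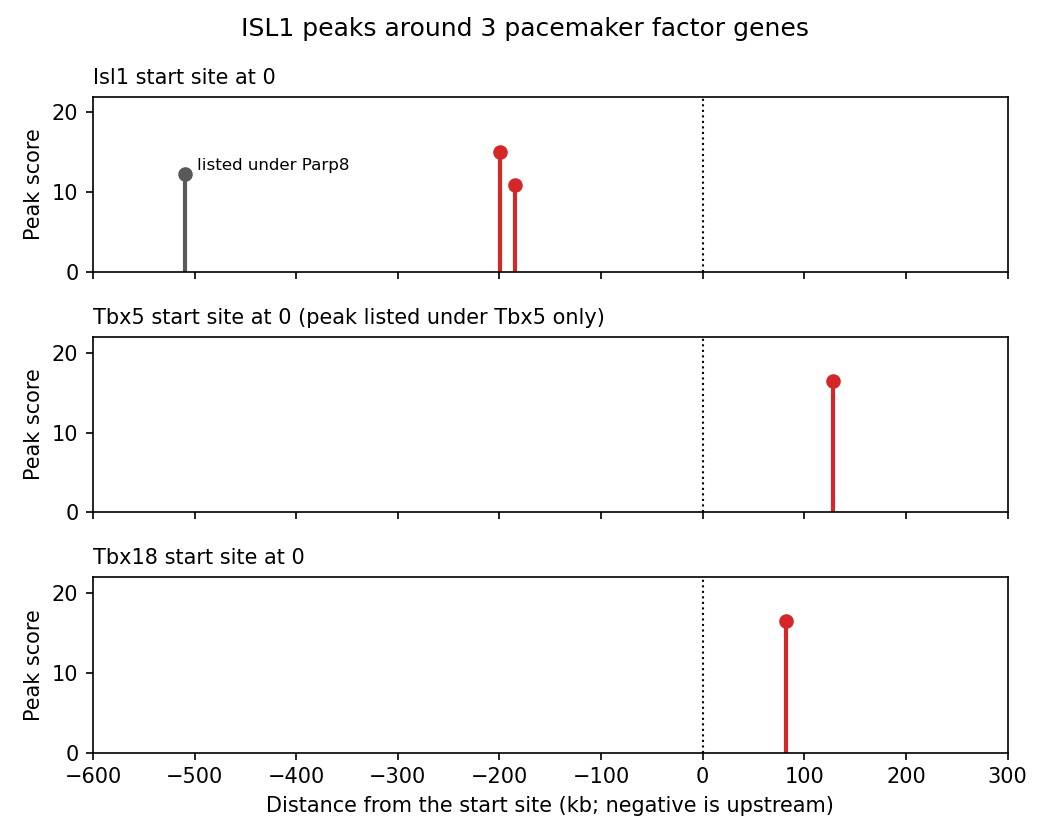
Vertical lines mark peaks by distance from each start site in kb (negative is upstream), with the authors' score as height, for Isl1, Tbx5 and Tbx18. The Isl1 panel shows 3 peaks on the upstream side, 1 of them (grey) listed under Parp8; the Tbx18 panel shows the 1 peak within 1 Mb, and the Tbx5 panel shows only the peak listed under Tbx5, leaving out the 2 AW549542 peaks, which lie upstream or downstream within 1 Mb but could not be placed.

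Tbx18 had the peak nearest to its start site among the 4, and the single one within 100 kb. It lay at chromosome 9, 87544074 to 87544218, 81.9 kb downstream of the start site and outside the gene body. The score was 16.4, or 12 steps (6.20 to 21.0), and 916 peaks scored lower. It stood alone: the next peak on the chromosome was 3081 kb away. With the strand of Tbx18 taken from RefSeq, no other peak lay within 1 Mb of its start site.

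The Tbx5 peak lay at chromosome 5, 120413278 to 120413422, 128.7 kb downstream of the start site. Its strand was not in the tables used here, so the start site was not placed. The 2 other peaks within 1 Mb of it, whichever the strand, were those listed under AW549542, described below. The Tbx5 peak had the same score of 16.4 as the Tbx18 peak and hence the same interval. Its focus ratio was 0.667 against 0.714 at Tbx18. The authors' detailed annotation placed it on an L3 element, an old LINE repeat of the CR1 class. Repeats held 7.82% of all peaks (116 of 1483). Of the 4 peaks described, it was the one on a repeat, and whether repeat sequence affected its score was not tested.

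Tbx3 lies beside Tbx5 on chromosome 5 and had no peak of its own. In RefSeq gene order, the noncoding gene AW549542 lies on the other side of Tbx3, with Tbx3os1 and Gm16063 between them. AW549542 was nearest to 2 intergenic peaks. One lay 50.1 kb downstream of its start site (119980239 to 119980383, score 13.7) and the other 159.9 kb downstream (119870384 to 119870528, score 15.1). Both were on the side of AW549542 that faces away from Tbx3. They were 433.0 and 542.9 kb from the Tbx5 peak, and no further peak was listed between the AW549542 start site and the Tbx5 peak. This holds for peaks that passed the authors' calling: the lowest score in the list was 8.21, or 6 steps, so weaker binding would not appear.

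Shox2 was without a peak as well, but a close pair lay on its side of Veph1, which is 2 places from it in gene order. These peaks were 1.38 kb apart at chromosome 3, 66283388 to 66283532 (score 13.7) and 66284767 to 66284911 (score 24.6). The second had the highest score of any peak listed under the 8 genes or the genes flanking them, at 18 steps (10.7 to 28.4), and 108 of 1483 peaks scored higher. They lay 182.7 and 184.1 kb upstream of Veph1, towards Shox2. As a peak is listed under the nearest start site, every annotated start site of Shox2 was farther from them than these distances. Ccnl1, a cyclin gene 3 places from Shox2 in gene order, had 2 further peaks at 16.1 and 83.1 kb upstream of its start site, with scores of 15.1 and 17.8. The detailed annotation placed the peak of score 17.8 on a LINE repeat, an L1MA7 element.

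Hcn4, the marker by which the cells were sorted and the effector gene of the group, had neither a peak of its own nor one under its 3 flanking genes on either side. It was the single member of which this held. Over all 26220 genes, 3.82% were nearest to a peak and 16.9% had one under such a flanking gene. Having neither is thus the common case and does not set Hcn4 apart. Tbx18 had no peak under a flanking gene but had its own. Near Tbx20, a peak of score 15.1 was listed under Herpud2, 2 places from it in gene order (chromosome 9, 24880441 to 24880585). It lay 75.8 kb downstream of the Herpud2 start site, on the side facing Tbx20. Near Tbx2, beyond its paralogue Tbx4, the noncoding gene Gm20759 had 2 intergenic peaks. Their scores were 9.58 and 13.7, at 34.6 kb downstream and 15.7 kb upstream of its start site (chromosome 11, 85803132 to 85803276 and 85853441 to 85853585). The first of these was among the weakest of the list, with 5 peaks scoring lower.

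In all, 5 of the 8 genes had a peak listed under 1 of the 3 genes on either side, namely Isl1, Shox2, Tbx2, Tbx3 and Tbx20. Over all 26220 genes with a curated RefSeq transcript the share was 16.9%. The stretch spanned by 3 genes varies with gene spacing, which was not corrected for. As the 8 genes were also chosen with results from these data in view, the count is set beside that share without a test. For Tbx3 the flanking genes include Tbx5, itself 1 of the 8. Leaving the 8 genes out, 10 peaks were listed under 6 flanking genes, and all 10 were intergenic. Nearest gene order does not show which gene a peak acts on, and these peaks are given as positions only.

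**Figure D3:**
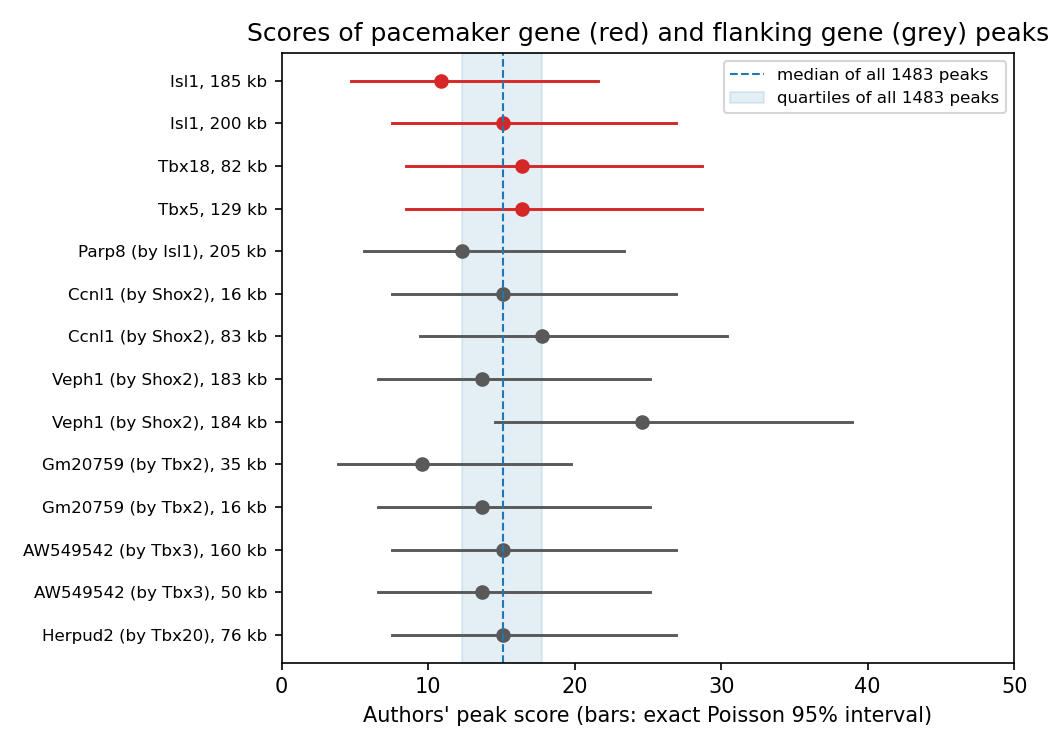
Points are the authors' scores of the 4 peaks listed under Isl1, Tbx18 and Tbx5 (red) and of the 10 peaks listed under genes flanking the 8 pacemaker genes (grey), each with its distance to its own gene's start site. Bars are exact Poisson 95% intervals if a score step is 1 tag; all 14 bars overlap the quartile band of all 1483 peaks (12.3 to 17.8), and the Veph1 peak of 24.6 has the highest score.

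None of the 8 genes had a peak at its promoter. Their promoter windows were searched for letters that homeodomain proteins commonly contact, since ISL1 and SHOX2 both carry a homeodomain. RefSeq promoter windows (GRCm38.p6, from 250 bases before to 50 after the start) were found for 5 of the 8 genes, Isl1, Shox2, Hcn4, Tbx18 and Tbx20. The core TAAT was searched on both strands, together with the longer forms TAATTA and CTAATG, which both contain it. The following 30-base stretches, 5′ to 3′ on the gene's own strand, are shown because they hold matches at members with and without a distal peak; capitals mark the match.
Isl1 first site: gcctcgggaggctTAATcctctcctgcggg
Isl1 second site: ggctgaaatatgaTAATcagaacagctgcg
Shox2: gcgaggggaggTAATttactcagaacaaga
Tbx18: gctttattgacaCTAATGagcaagttcttc
Tbx20: ccaccgccagcaaATTAaggcgcgaggcag

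In GRCm38.p6 the Isl1 sites are at chr13:116309849-116309878 and chr13:116309784-116309813, that of Shox2 at chr3:66981992-66982021, that of Tbx18 at chr9:87731268-87731297 and that of Tbx20 at chr9:24774298-24774327, all on the minus strand. These positions belong to another build than the mm9 peaks and cannot be set beside them. TAAT was found in the windows of Isl1, Shox2, Tbx18 and Tbx20 and not in that of Hcn4. It is a common word, held by 58.0% of the 32851 promoter windows. The Tbx18 window held a second TAAT match, read as ATTA on the gene's strand and beginning 44 bases after the start, which is not shown. CTAATG was found at Tbx18 alone among the 5 genes, and in 7.36% of all windows. TAATTA was in none of the 5, and in 5.29% of all windows. The CTAATG match at Tbx18 began 25 bases before the start site, where no peak was called; the Tbx18 peak lay 81.9 kb away. Windows with a match and without a called peak are thus the case at 4 of the 5 genes, and these matches are descriptions of sequence, not binding sites.

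By count, 3 of the 8 genes (37.5%) were nearest to at least 1 peak at any distance, against 3.82% of the 26220 genes. Within 100 kb, 1 of 8 (12.5%) was, against 2.57%. The 8 were chosen with results from these data in view and sit in loci of unequal width, so the counts are set beside the background without a test. In their gene families, 2 of the 17 T-box genes had a peak (11.8%, against 3.82% of all genes), and these were Tbx5 and Tbx18. Of 14 genes for LIM-homeodomain factors and their LIM-domain-binding cofactors, Isl1 was the 1 with a peak (7.14%). None of the 4 HCN channel genes had one. At a background of 3.82%, lists of this length would hold no gene or about 1 gene with a peak, so the families' other genes are not set apart by having none.

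Among 10 paired-related homeodomain genes that include Shox2, Alx1, a gene of craniofacial development, was the 1 with peaks (10% at any distance and within 100 kb, against 3.82% and 2.57% of all genes). That count is near the background for a list of this length. Its 3 peaks scored 9.58, 10.9 and 15.1, at distances of 27.5 to 143.7 kb. Shox2 itself and the other paired-related genes had none.

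Of 22 other transcription factor genes of the pacemaker and atrial programme, 9 were nearest to a peak (40.9%, against 3.82% of all genes). They had 20 peaks in all. Within 100 kb, 1 of the 22 genes had a peak (4.55%, against 2.57% of all genes). This list too was chosen with results from these data known, so its shares are set beside the background without a test. Like those of Isl1, Tbx5 and Tbx18, the 20 peaks were far from start sites, at a median of 166.1 kb. Of the 20, 1 lay within 100 kb (5%), against 25% of the 4 peaks above and 55.4% of all peaks (822 of 1483). The 20 peaks reached higher scores, from 10.9 to 30.1 with a median of 16.4, and 12 of the 20 were intergenic. The highest, 30.1, was listed under the forkhead gene Foxc1 (4 peaks), and the next, 27.4, under the TALE homeodomain gene Meis2 (2 peaks). All 4 Foxc1 peaks lay 151.9 to 248.8 kb from the Foxc1 start site. Their annotation was intron 7 of a transcript other than the one listed for Foxc1. Irx1 and Irx4, of the Iroquois homeodomain family, each reached 21.9. Meis1 had the most peaks, 5, with scores of 10.9 to 17.8. Nr2f1 and Nr2f2, which encode COUP-TF orphan nuclear receptors, had 2 each with a highest score of 17.8. Irx3 had 1 of 16.4, the same score as at Tbx5 and Tbx18, and Mef2c had 1 of 12.3.

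The markers of neighbouring cell types gave 1 gene each. Of 14 genes of working atrial myocardium, Kcnj2, an inward rectifier potassium channel gene, had a peak (12.3, at 149.0 kb). Of 14 autonomic neuron genes, Gata3 had a peak (17.8, at 274.1 kb). Both shares are 7.14%, against 3.82% of all genes. Within 100 kb none of either list had a peak, against 2.57%. Counts of 1 and 0 in 14 genes are near those shares and do not describe the lists.

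**Figure D4:**
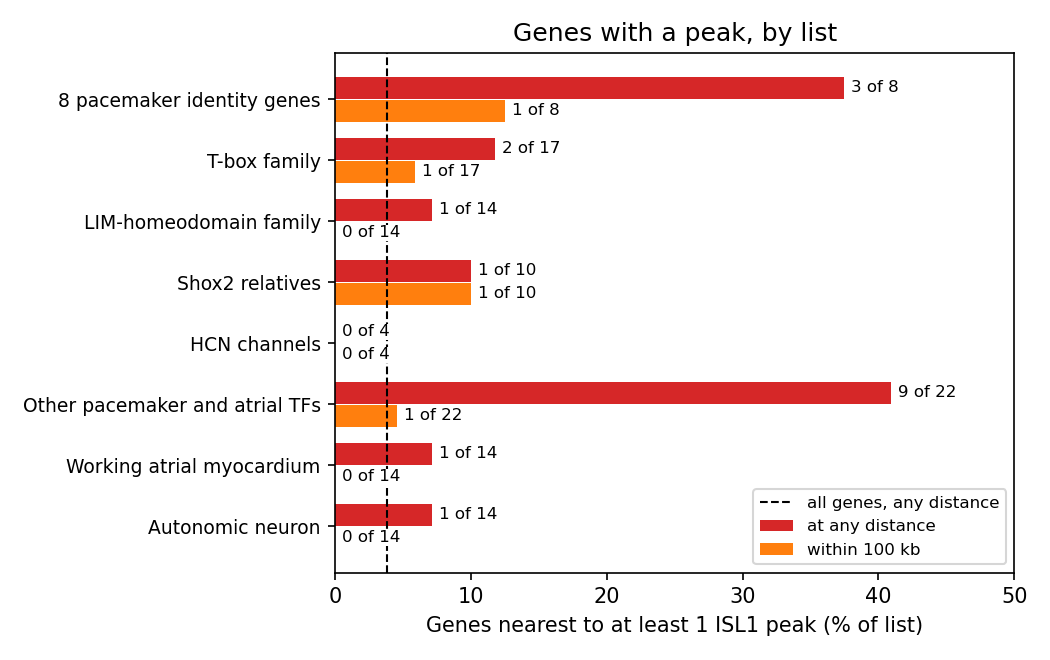
Bars give the percentage of genes in each list that were nearest to at least 1 ISL1 peak, at any distance (red) and within 100 kb (orange), with the counts beside them; the dashed line is the share over all 26220 genes at any distance (3.82%). The 8 pacemaker genes (3 of 8) and the other pacemaker and atrial transcription factors (9 of 22) have the longest red bars, and within 100 kb each is down to 1 gene. Both lists were chosen with results from these data known.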

How the data were processed

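ISL1-bound chromatin and input DNA were prepared from flow-sorted node cells. Per the labels' protocols, cells were crosslinked with disuccinimidyl glutarate (2 mM, 30 min) and formaldehyde (1%, 10 min), a pair of agents that can also capture factors held through partner proteins. Chromatin was sheared to 100 to 400 bp. Bowtie, HOMER and the build mm9 are named, per the submitters' processing notes; tool versions and peak calling settings were not given in the sources used here. Only 1 library gave the peaks, and the use made of the input is not known. The deposited score, focus ratio (a fraction) and distance are the authors' values per peak, each peak being 144 bp from start to end; total reads were not analysed, so depth follows from the score steps alone.

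Genes were matched by Entrez identifier to RefSeq (GRCm38.p6), with 1002 of 1003 found, and that table served only for names, strands, gene order and promoter sequence. A start site was placed in mm9 from 2 peaks of 1 gene, or from 1 peak and the RefSeq strand. The step was found by search, with 0 scores off after rounding to 3 digits, and the search was tested on simulated scores. Python 3.11.15, pandas 2.3.3 and scipy 1.17.1 were used. Named were the 8 genes with every peak, flanking genes with a peak, any peak within 1 Mb of a placed start site, and up to 8 genes with a peak per list, by highest score; Mef2c, ninth in its list, was added to complete the count. The members and lists were chosen with earlier results of these data known.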

Additional observations from a re-analysis of the deposited data

How the results depend on the processing

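The 4 peaks and 3 genes rest on long distances and on scores with a median of 15.8, against 15.1 over the list. The lowest of the 4 scores was 10.9. Keeping scores at or above the 75th percentile left 0 peaks and 0 of the 8 genes. Over the list, 436 of 1483 peaks passed that cut, so 0 of 4 peaks does not set the 8 genes apart. Of the 12 other list genes with a peak, 8 kept one at that cut. Several of those 12 genes had more than 1 peak, so these counts are not compared. Keeping peaks within 100 kb left 1 peak and 1 gene, Tbx18 (81.9 kb), and took the other list genes with a peak from 12 to 2. Counting the 3 genes on either side too gave 14 peaks and 7 of the 8 genes, all but Hcn4. Over all 26220 genes, 3.82% had a peak of their own and 16.9% had one under a flanking gene. The share of all genes with either was not computed, so the 7 of 8 has no matched background. The median distance of 156.6 kb became 128.7 kb at or above the median score and 184.6 kb without peaks on repeats, which leaves out Tbx5. A limit of 200 kb, the host gene counted too, or merging within 1 kb left the number of peaks and of genes at 4 and 3. No paired analysis was possible because the series held 1 ISL1 library. Each score rests on 8 to 12 steps. If a step is 1 tag, intervals of the 4 peaks overlap and their order is not resolved. The intervals take no account of the calling floor, the lowest listed score being 6 steps.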
